A study of Drosophila melanogaster with 8 samples.

Results

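The genes of the larval sarcomere described here were followed through a single-nucleus RNA-seq atlas of whole *Drosophila melanogaster* larvae. The 10 genes were taken by symbol from the 12610 genes of the deposited matrix, and all 10 were found there. They are *Mhc*, *Mlc2*, *Prm* and *Mf* of the thick filament, the titin-like genes *sls* and *bt*, *sals*, and *Tm2*, *up* and *wupA* of the thin filament. The matrix held 30819 nuclei in 28 clusters, from 8 libraries of larvae at the wandering stage of the third instar, all of the white-eyed *w1118* strain. Every library was a pool of 16 frozen larvae (8 males and 8 females) collected 5 days after egg deposition, all libraries had the same genotype with no treatment, and nuclei were sorted after staining with a DNA dye. Clusters therefore took the place of conditions. Above all these were cluster 23, which the authors named muscle (401 nuclei), cluster 11, which they named mixed (1074 nuclei), cluster 12, which they named myoblasts (967 nuclei), and the 25 other clusters (28377 nuclei). Cluster 11 is 1 of 8 clusters named mixed, which were poorly separated and which the authors clustered again into finer cell types. That finer division was not used here, so cluster 11 is treated as 1 group although it may hold more than 1 cell type.

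The sarcomere is the contractile unit of striated muscle. Thick filaments of myosin slide along thin filaments of actin, which are anchored at the Z disc, while titin-like proteins tie the thick filaments to the Z disc and tropomyosin with the troponins lets calcium switch the thin filament on. Larval body wall muscles are single multinucleate fibers made by fusion of myoblasts in the embryo. A separate pool of adult muscle precursors, which includes the myoblasts that lie on the imaginal discs, divides through larval life and builds the adult muscles in the pupa.

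Libraries held between 3090 and 5405 nuclei and between 3815620 and 6488760 corrected UMIs (unique molecular identifiers, each marking 1 captured RNA molecule). The median nucleus had 699 UMIs in cluster 23, 717 in cluster 11, 1092 in cluster 12 and 950 in the other clusters. Nuclei of 1 cluster and library were summed, sums of at least 10 nuclei were used, and levels are given as CPM, corrected counts per 1000000 of the sum. Library 7 had only 7 nuclei in cluster 23 and was left out there, so that cluster 23 has 7 libraries and the others 8. Across libraries 584 barcodes occurred more than once, in 2236 nuclei, and such barcodes made up 13.0% of cluster 23, 24.1% of cluster 11, 0.517% of cluster 12 and 6.77% of the other clusters. Without these nuclei the number of members called was the same in each of the 6 comparisons below. The labels do not say that the pools came from separate cultures, so errors and p-values measure the spread between these libraries only. The authors built the clusters from the same counts, so a level that sets a cluster apart may have helped to form it, and the folds between clusters are given as a description of the clusters and of how even they were over libraries.

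The labels were checked against marker genes outside the 10. The summed level of 14 muscle markers was 27190 ± 3793 CPM in cluster 23 (SD, n = 7) and 27215 ± 17802 CPM in cluster 11, against 6971 ± 682 CPM in cluster 12 and 6694 ± 1179 CPM in the other clusters (SD, n = 8 each). Most of the sum in cluster 12 came from *Msp300*, a giant nesprin that anchors nuclei, with a pooled level of 6106 CPM. Myoblast markers (7 genes) summed to 2292 ± 212 CPM in cluster 12 and to 626 ± 277 CPM in cluster 23, with 48.9 ± 43.9 CPM in cluster 11 and 378 ± 52.0 CPM in the other clusters. *Him* and *twi*, which keep adult muscle precursors undifferentiated, had pooled levels of 124 and 54.2 CPM in cluster 12, against 1.77 and 3.52 CPM in cluster 23. The summed markers thus matched the names of clusters 12 and 23, but the muscle sum was alike in clusters 23 and 11. Not every single marker matched. Of the myoblast markers only *Ama* was lower in cluster 12 (pooled 61.7 CPM) than in the other clusters (152.8 CPM). *htl* was alike in clusters 12 and 23 (74.98 and 72.8 CPM). *Zasp66* (13964 CPM) led the muscle sum of cluster 23. *Mlc1*, *Act57B*, *TpnC47D* and *Msp300* were not called there over the other clusters in the fit described below, while the other muscle markers were called higher. By pooled level *Zasp66*, *Zasp52*, *Msp300*, *Unc-89* and *RyR* were higher in cluster 23 than in cluster 11. All other muscle markers were lower, such as *Mlc1* (832 CPM against 5247 CPM). Markers of another cell type were also high in cluster 11, where 8 epidermis markers, led by larval cuticle genes, made up 27.3% of its UMIs (8.16% to 33.0% over libraries), against 0.983% in cluster 23, 0.157% in cluster 12 and 8.34% in the other clusters. The part of these markers in the levels of cluster 11 was not tested.

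All 10 genes stood far above the other clusters in clusters 23 or 11, and none did in cluster 12. In the muscle cluster the 10 genes together took 3.81 ± 1.18% of the UMIs (SD, n = 7 libraries), and in cluster 11 3.1 ± 2.37% (n = 8), against 0.101 ± 0.0300% in cluster 12 and 0.345 ± 0.206% in the other clusters (n = 8 each). The lowest library of cluster 23 was at 2.25% and the lowest of cluster 11 at 1.52%, both above the highest of the other clusters, at 0.628%. Library 4 stood apart in cluster 11, where the 10 genes took 8.53% of its UMIs, while the other libraries lay between 1.52% and 4.03%. The 14 muscle markers took 6.70% of the UMIs of library 4 in cluster 11, against 1.42% to 3.55% in the other 7 libraries, epidermis markers 8.16% against 25.4% to 33.0%, and cytoplasmic ribosomal protein genes 12.2% against 3.94% to 5.87%. The part of these in the levels of library 4 was not tested.

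Myosin heavy chain, the motor of the thick filament, is encoded by *Mhc* (FBgn0264695; 2L of BDGP6.54, 16766566 to 16788766, plus strand). *Mhc* had 706 CPM in the lowest, 1668 CPM in the median and 3919 CPM in the highest library of cluster 23. In cluster 11 these values were 1397, 2729 and 9146 CPM, in cluster 12 35.9, 70.2 and 163 CPM, and in the other clusters 87.8, 214 and 597 CPM. Neither cluster 23 nor cluster 11 overlapped the other clusters, and the median library of cluster 23 was 6.57 times the other clusters of the same library, against 10.4 times in cluster 11.

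*Mlc2* (FBgn0002773; 3R, 30171438 to 30174551, minus strand) encodes the regulatory light chain of muscle myosin. It was the only one of the 10 not called in the muscle cluster over the 25 other clusters in the fit described below. The lowest, median and highest libraries had 581, 1732 and 2993 CPM in cluster 23, 4495, 8199 and 28841 CPM in cluster 11, 163, 226 and 413 CPM in cluster 12, and 270, 986 and 2538 CPM in the other clusters. Cluster 23 thus overlapped the other clusters and was above them in 4 of 7 libraries, while cluster 11 lay above them in all 8.

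Paramyosin (*Prm*; FBgn0003149; 3L, 8732858 to 8745310, minus strand) forms the core of invertebrate thick filaments, and Myofilin (*Mf*; FBgn0038294; 3R, 15170625 to 15181510, minus strand) is a thick filament protein of insects. *Prm* reached 768, 1810 and 2486 CPM in the lowest, median and highest library of cluster 23, and 823, 1355 and 4739 CPM in cluster 11, against 38.8, 127 and 362 CPM in the other clusters. *Mf* reached 3507, 8098 and 10165 CPM in cluster 23, and 1668, 2650 and 8883 CPM in cluster 11, against 101.3, 274 and 727 CPM in the other clusters. Neither gene overlapped the other clusters in cluster 23 or in cluster 11. In cluster 12 the ranges were 22.3 to 48.4 CPM for *Prm* and 5.77 to 134 CPM for *Mf*. *Mf* overlaps *Gyc88E* on the other strand, and whether reads were counted by strand is not given in the sources used here.

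The titin-like genes are the longest of the 10. Sallimus (*sls*; FBgn0086906; 3L, 2039681 to 2115611, minus strand) spans from the Z disc to the thick filament, and Projectin (*bt*; FBgn0005666; chromosome 4, 724400 to 776474, plus strand) lies along the thick filament and carries a kinase domain. *sls* had 4961, 8344 and 15134 CPM in the lowest, median and highest library of cluster 23, 499, 1023 and 6451 CPM in cluster 11, 144, 203 and 289 CPM in cluster 12, and 194, 274 and 367 CPM in the other clusters. For *bt* the values were 6301, 7590 and 10653 CPM in cluster 23, 495, 1112 and 7161 CPM in cluster 11, 93.5, 155 and 241 CPM in cluster 12, and 162, 228 and 362 CPM in the other clusters. Both genes were above cluster 11 in all 7 libraries that allow the comparison, with a median ratio of 9.88 for *sls* and 6.09 for *bt*, although library 4 of cluster 11 lay within the range of cluster 23. An antisense RNA gene overlaps *sls*, and transposon copies overlap both genes.

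*sals* (sarcomere length short; FBgn0051374; 3R, 11437547 to 11451791, minus strand) encodes a protein of the pointed end of the thin filament that lets the filament grow to its length. It set the muscle cluster apart more than any of the other 9 genes in the fit described below. Its lowest, median and highest libraries had 2139, 2654 and 3537 CPM in cluster 23, 160, 317 and 868 CPM in cluster 11, 13.0, 25.6 and 58.6 CPM in cluster 12, and 31.2, 57.0 and 98.0 CPM in the other clusters. The ranges of cluster 23, cluster 11 and the other clusters did not overlap one another, while cluster 12 overlapped the other clusters. *CG17230* overlaps *sals* on the other strand.

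The remaining genes switch the thin filament. *Tm2* (FBgn0004117; 3R, 15310193 to 15315197, plus strand) encodes a tropomyosin, *up* (FBgn0004169; X, 13593474 to 13602578, minus strand) troponin T and *wupA* (FBgn0283471; X, 18105568 to 18116922, minus strand) troponin I. *Tm2* had 235, 746 and 1419 CPM in the lowest, median and highest library of cluster 23, and 1271, 2324 and 6676 CPM in cluster 11, against 42.5, 151 and 522 CPM in the other clusters. *up* had 1819, 3692 and 4723 CPM in cluster 23, and 1110, 2252 and 5940 CPM in cluster 11, against 71.3, 159 and 434 CPM in the other clusters. *wupA* had 1117.85, 2450 and 2919 CPM in cluster 23, and 1107, 1991 and 6552 CPM in cluster 11, against 57.4, 176 and 503 CPM in the other clusters. In cluster 12 the ranges were 0.711 to 68.1 CPM for *Tm2*, 28.3 to 107 CPM for *up* and 10.0 to 88.9 CPM for *wupA*. In clusters 23 and 11 only *Tm2* of cluster 23 overlapped the other clusters, while all 3 genes did in cluster 12. The ranges of the troponin genes in clusters 23 and 11 overlapped, whereas *Tm2* was lower in cluster 23 in all 7 libraries.

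**Figure D1:**
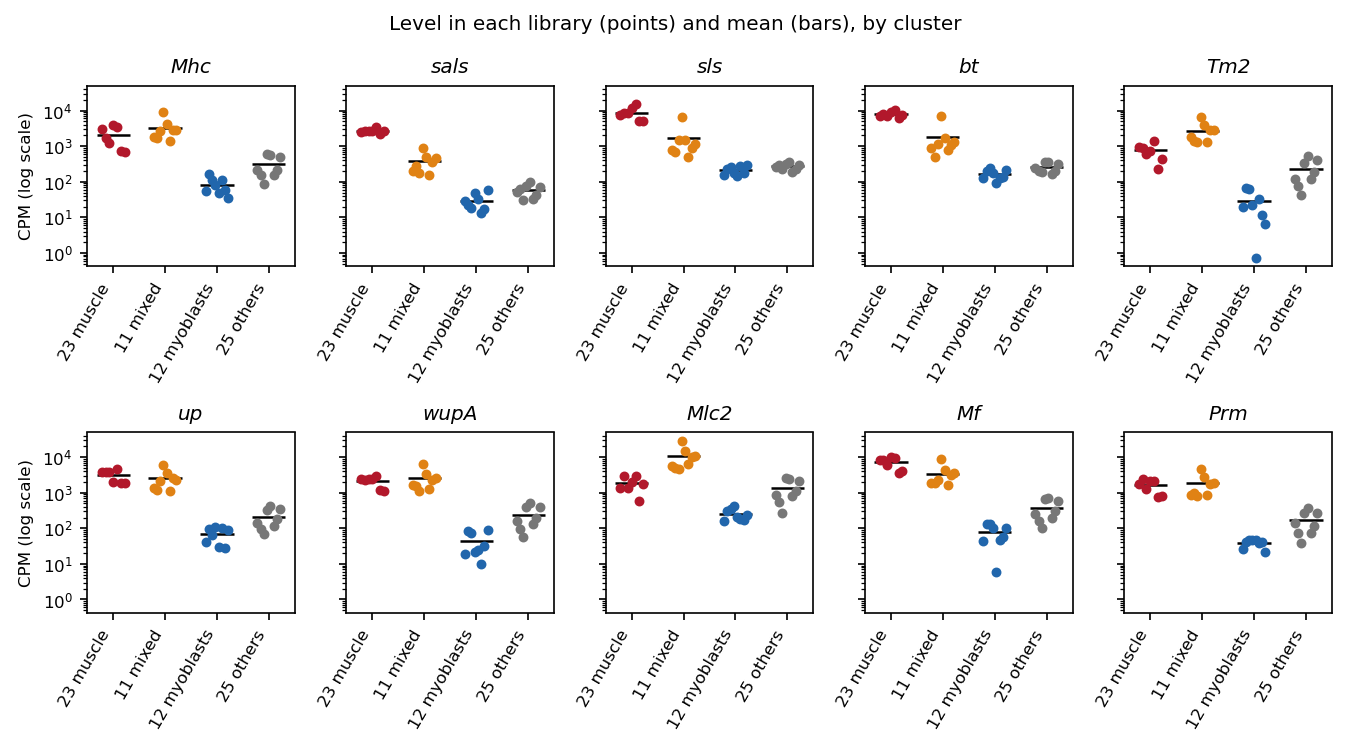
CPM (log scale) of each gene in each library (points) with the mean over libraries (bars), for cluster 23 (7 libraries), cluster 11, cluster 12 and the 25 other clusters (8 libraries each). For *sals*, *sls* and *bt* the points of cluster 23 sit above nearly all of cluster 11, for *Mlc2* and *Tm2* below, and cluster 12 is nowhere above the other clusters by more than their spread.

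Sums of all groups were then compared in 1 fit with edgeR's quasi-likelihood test, over the 3034 genes that passed its filter on low counts, and a gene was called at a Benjamini-Hochberg adjusted p under 0.05 and a log2 fold change of at least 0.54 in size. All 10 genes passed the filter. In cluster 23 over the other clusters 9 of the 10 were called higher and 0 lower, where 23.9% of all genes tested were called higher. The log2 fold changes were 5.51 ± 0.39 (SE) for *sals*, 5.00 ± 0.45 for *sls*, 4.96 ± 0.46 for *bt*, 4.16 ± 0.50 for *Mf* and 3.79 ± 0.45 for *up*, and lay between 1.73 and 3.19 for *Prm*, *wupA*, *Mhc* and *Tm2*. *Mlc2* was not called, at 0.38 ± 0.48 with an adjusted p of 0.488 from edgeR. That value depends on the reference. *Mlc2* was at 2.93 when cluster 3 and the mixed clusters, where its levels were high, were left out of the other clusters. This alternative was added after the data were seen. Leaving out clusters with high levels raises the fold by construction, so no p is given for it. *Tm2* was no longer called (1.08, adjusted p = 0.130 from edgeR) against all nuclei outside cluster 23. The median of the 10 was 3.49, beside -0.49 over all genes tested.

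In cluster 11 over the other clusters all 10 genes were called higher, where 40.1% of all genes tested were. Their log2 fold changes lay closer together than in cluster 23, between 3.77 ± 0.42 for *sls* and 4.78 ± 0.56 for *Tm2*, with a median of 4.44 beside -0.02 over all genes. Clusters 23 and 11 also stood above cluster 12 in all 10 genes, with medians of 5.48 and 6.61, where 21.2% and 42.5% of all genes were called higher. The median log2 fold change of all genes in cluster 11 over the other clusters moved to -1.32 when sums were scaled by their totals alone, and all 10 genes were still called higher. The size of these folds thus depends on the scaling. By CPM, which carry no scaling factor, the median ratio to the other clusters ran from 3.94 for *sls* to 15.8 for *Tm2* in cluster 11. In cluster 23 it ran from 1.22 for *Mlc2* to 43.4 for *sals*. The folds of clusters 23 and 11 are therefore not ranked against each other.

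The muscle cluster and cluster 11 differed in the mix of the 10 genes, a measure that no scaling of the libraries can change. Of the summed counts of the 10 genes, *sls* took 22.6 ± 3.06%, *bt* 21.8 ± 4.69%, *Mf* 18.3 ± 2.45% and *sals* 7.45 ± 1.78% in cluster 23, against 5.16 ± 2.07%, 5.30 ± 1.68%, 11.4 ± 0.938% and 1.27 ± 0.317% in cluster 11 (SD, the same 7 libraries). These 4 shares were higher in cluster 23 in every library, and their ranges did not overlap. In the other direction *Mlc2* took 4.76 ± 1.66% in cluster 23 and 34.3 ± 4.67% in cluster 11, *Mhc* 5.14 ± 2.29% and 11 ± 2.01%, and *Tm2* 1.89 ± 0.517% and 8.88 ± 1.2%. These 3 shares were lower in cluster 23 in every library and did not overlap either, and the share of *Prm* was lower in every library with ranges that overlapped. Only *up*, at 8.31 ± 2.13% in cluster 23 and 8.44 ± 1.80% in cluster 11, and *wupA*, lower in 6 of 7 libraries, had differences of both signs.

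**Figure D2:**
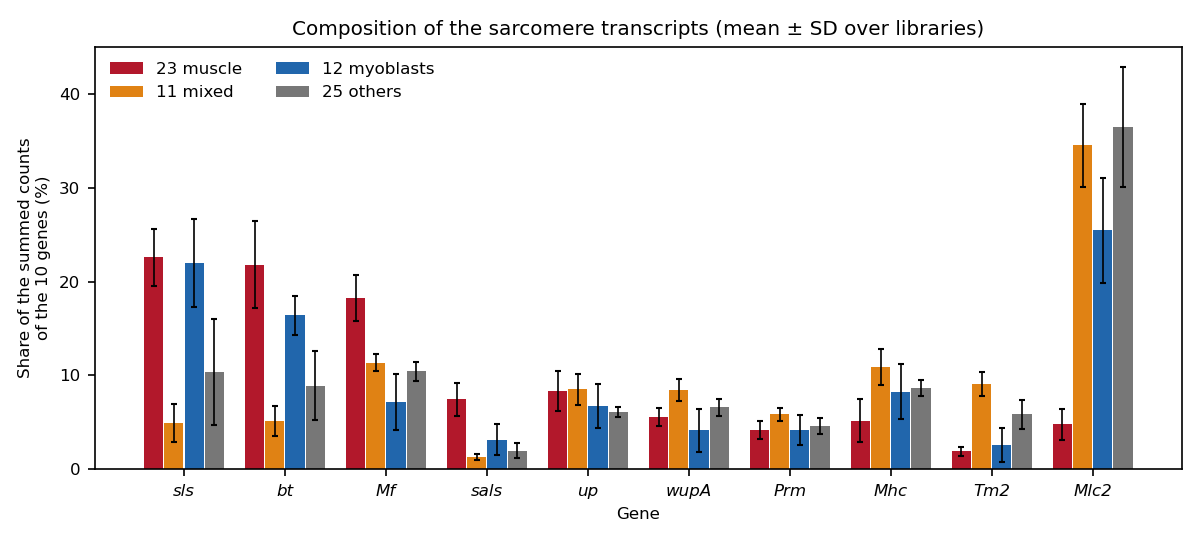
Share of each gene in the summed counts of the 10 genes (%, bars from 0, mean ± SD over 7 libraries in cluster 23 and 8 in the others). The bars of *sls*, *bt*, *Mf* and *sals* are taller in cluster 23 than in cluster 11, and those of *Mlc2*, *Mhc* and *Tm2* shorter, with *Mlc2* at 4.76% and 34.6%.

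In levels the fit gave the same direction for *sals*, *sls*, *bt*, *Mlc2*, *Tm2*, *Mhc* and *Prm*, but not for *Mf*. In cluster 23 over cluster 11, *sals* (log2 fold change 1.56 ± 0.34), *sls* (1.23 ± 0.39) and *bt* (0.94 ± 0.40) were called higher, where 35.8% of all genes were, and *Mlc2* (-3.79 ± 0.54), *Tm2* (-3.05 ± 0.56), *Mhc* (-1.81 ± 0.49), *wupA* (-1.51 ± 0.47) and *Prm* (-1.43 ± 0.45) were called lower, where 41.1% were (SE). *up* (-0.90 ± 0.43, adjusted p = 0.0543 from edgeR) and *Mf* (-0.17 ± 0.46, adjusted p = 0.748) were not called. With sums scaled by their totals alone the median of all genes moved to 1.07, against -0.06, and the split became 4 higher and 2 lower, *Mf* turning to 1.02 and *up* to 0.28, while *sals*, *sls* and *bt* stayed higher and *Mlc2* and *Tm2* lower. The calls of *Mhc*, *wupA* and *Prm* were thus lost. The 35.8% and 41.1% above belong to the main fit, and the shares of all genes called with totals alone are not given here. CPM carry no such scaling factor, so the ratios of CPM given above lie nearer to this second split. *bt* had adjusted p-values of 0.0555 to 0.0908 from edgeR without library 1, 2, 3, 6 or 8, and *wupA* (0.0643 to 0.135) and *Prm* (0.0744 to 0.144) were not called without library 4 or 7. *up* was called lower without library 1, 2 or 3 (adjusted p = 0.0373 to 0.0436 from edgeR). With 1 library left out at a time, the log2 fold change ran from 1.47 to 2.22 for *sals*, 1.15 to 2.31 for *sls* and 0.83 to 2.04 for *bt*. Without library 4 the median of all genes tested was 0.67, against -0.06. Without the filter on low counts *Mhc* (adjusted p = 0.0963), *wupA* (0.160) and *Prm* (0.173) were not called by edgeR.

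These genes differ in length, from 3114 bases for *Mlc2* and 5005 for *Tm2* to 52075 for *bt* and 75931 for *sls*, first to last annotated base. Over the 10 genes the log2 fold change of cluster 23 over cluster 11 went with the logarithm of gene length, with Pearson's r = 0.78 and Spearman's rho = 0.66. Genes are not independent replicates, and all share the same libraries, so this is a description. It was not particular to the sarcomere genes, since over the 2905 tested genes with a length in the annotation r was 0.66 and rho 0.68. With all these genes split by length into 4 groups of like size, the median log2 fold change was -3.36, -0.56, 0.93 and 2.29 from the shortest to the longest group. *Mhc*, in the longest group at 22201 bases, was at -1.81. Clusters 23 and 11 also differed in the kinds of RNA they held. Transcripts of cytoplasmic ribosomal protein genes made up 1.51% of the UMIs in cluster 23, against 6.06% in cluster 11, those of the mitochondrial genome 0.146% against 0.723%, and long noncoding RNAs 6.60% against 0.330%. The part of these differences in the mix of sarcomere genes was not tested.

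**Figure D3:**
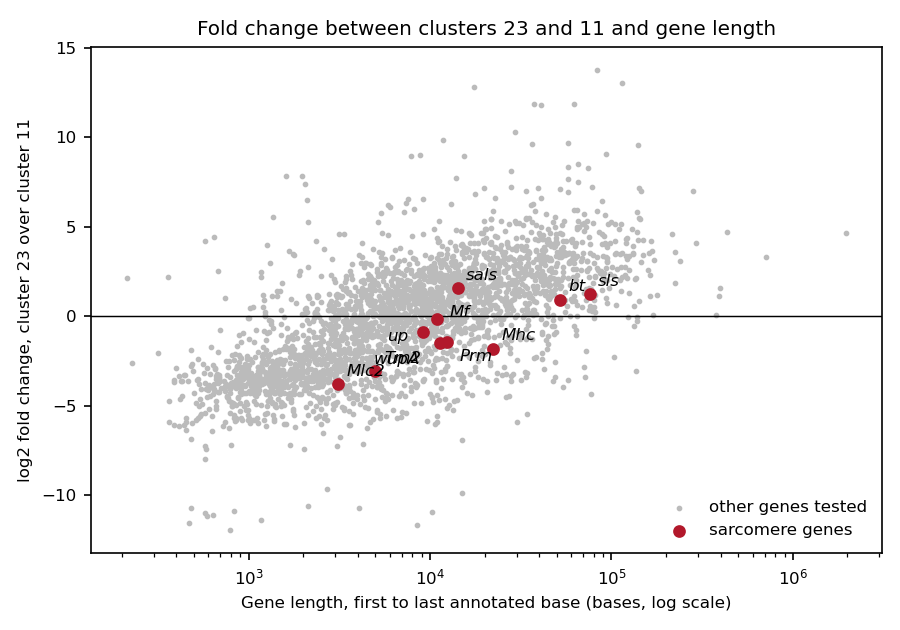
Log2 fold change of cluster 23 over cluster 11 (edgeR) against gene length (bases, log scale) for the 2905 tested genes with an annotated length, the 10 sarcomere genes in red. The red points run with the grey ones from *Mlc2* at -3.79 up to *sals*, *bt* and *sls* above 0, with *Mhc* below most genes of its length.

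The mix of the 10 genes was also read outside clusters 23 and 11. In the sum of the 7 mixed clusters other than 11 it was close to that of cluster 11, with *Mlc2* at 42.2 ± 3.00%, *Mf* at 11.9 ± 0.686%, *Tm2* at 7.93 ± 0.921%, *sls* at 4.01 ± 0.783% and *sals* at 1.09 ± 0.223% (SD, n = 8). In the 17 clusters that remain when cluster 3 and the mixed clusters are also set aside, a grouping chosen after the levels were seen, *Mlc2* took 27 ± 3.51%, *sls* 21.1 ± 2.96%, *bt* 16.0 ± 2.07%, *Tm2* 3.09 ± 0.776% and *Mf* 8.23 ± 1.04%. Cluster 12 resembled these 17, with *Mlc2* at 25.5 ± 5.61%, *sls* at 22 ± 4.67%, *bt* at 16.4 ± 2.10%, *Tm2* at 2.55 ± 1.82% and *Mf* at 7.14 ± 3.00% (SD, n = 8). In enterocyte cluster 3 the mix varied between libraries, with *Mlc2* at 35.1 ± 12.5%, *sls* at 12.1 ± 11.4% and *bt* at 12.7 ± 6.82% (SD, n = 8). The 10 genes took 0.107 ± 0.0180% of the UMIs in the 17 clusters, beside 0.101 ± 0.0300% in cluster 12.

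The myoblast cluster thus had the 10 genes at about the summed level of the 17 clusters. In cluster 12 over the other clusters 8 of the 10 were called lower and 0 higher, where 34.5% of all genes were called lower, with log2 fold changes between -2.96 ± 0.59 for *Tm2* and -1.08 ± 0.40 for *sals*. *sls* (-0.42, adjusted p = 0.329 from edgeR) and *bt* (-0.71, adjusted p = 0.118) were not called. With cluster 3 and the mixed clusters left out of the other clusters, an alternative added after the data were seen, 0 of the 10 were called by edgeR and 0 had an unadjusted p under 0.05. Clusters with high levels of these genes were left out there, so that reference was low by choice. The share of all genes called in that fit is not given here. A comparison added after the data were seen set cluster 12 against clusters 0, 1 and 5, the nuclei of the wing, leg and haltere discs on which such myoblasts lie. There 0 of the 10 genes were called in either direction over 3660 genes tested, where 11.1% were called higher and 13.3% lower, with 0 at an unadjusted p under 0.05 by edgeR and 0 called by DESeq2. The log2 fold changes ran between -0.21 ± 0.38 for *sls* and 0.74 ± 0.68 for *Tm2*, and their standard errors lay between 0.38 and 0.68, so that differences as large as the 0.74 of *Tm2* did not pass the test.

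Levels were ordered over the 28 clusters by the mean CPM of the libraries. Cluster 23 came first for *sals*, *sls*, *bt*, *up* and *Mf*, and cluster 11 for *Mhc*, *Tm2*, *wupA*, *Mlc2* and *Prm*. Neighbours among the 6 highest clusters were compared by an exact permutation test paired by library (two-sided), which gives 50 pairs over the 10 genes, of which 11 had an unadjusted p under 0.05 and 0 a Benjamini-Hochberg adjusted p under 0.05. The test can give no p below 0.0156 with 7 libraries and 0.00781 with 8. Cluster 23 was higher than cluster 11, next to it, for *sals*, *sls*, *bt* and *Mf* (higher in 7 of 7 libraries, exact p = 0.0156 and adjusted p = 0.0868 for each gene), and cluster 11 was higher than cluster 8, next to it, for *Tm2* and *Mlc2* (higher in 8 of 8 libraries, exact p = 0.00781, adjusted p = 0.0781). For *Mhc* (p = 0.109), *up* (p = 0.5), *wupA* (p = 0.672) and *Prm* (p = 0.703), the exact test found no difference between clusters 11 and 23 at the head of the order. From the fourth place down, all neighbours had an unadjusted p above 0.05.

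The next places went mostly to the mixed clusters and to cluster 3, the enterocytes of the gut. In cluster 3 *Mlc2* had 225, 2077 and 10351 CPM in the lowest, median and highest library and *Mhc* 20.1, 444 and 2248 CPM, against 181, 312 and 343 CPM and 53.9, 84.4 and 115.2 CPM in the 17 clusters. The highest library was library 4 in both genes, and it held 1508 of the 2055 nuclei of cluster 3. In library 5, with 28 nuclei of cluster 3, *sls* was at 9886 CPM from 182 corrected counts, against at most 1003 CPM in the other 7 libraries.

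Among the 17 clusters some levels in clusters 14, 24 and 25 stood out, chosen after their values were seen and so given with no test. *sls* in cluster 14, one of the eye disc clusters, had 816, 1308 and 1604 CPM in the lowest, median and highest library, against 199, 237 and 255 CPM in disc clusters 0, 1 and 5 and 26.2, 146 and 310 CPM in eye disc cluster 26. The ranges did not overlap, and the other 9 genes of cluster 14 were between 38.1 and 329 CPM on average. In the gonad cluster 24 *Mlc2* had 916, 1305 and 1924 CPM, *Mhc* 220, 721 and 963 CPM and *up* 280, 529 and 790 CPM, above the other 16 clusters in all 6 libraries with enough nuclei. From counts pooled over libraries cluster 24 had the highest level of the 17 clusters in 8 of the 10 genes, all but *sals* and *sls*, among them *wupA* (354 CPM, against 74.2 CPM in the next cluster), *Tm2* (213 CPM against 60.02 CPM) and *Prm* (162 CPM against 67.6 CPM). *sals* was at 36.8, 258 and 1004 CPM in neuron cluster 25, against 18.9, 46.9 and 76.8 CPM in the other neuron clusters, and rested on 2.42 to 45.2 corrected counts a library.

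Single nuclei were compared at 1 depth, by thinning each to 300 UMIs, which left out 23 nuclei of cluster 23, 112 of cluster 11, 2 of cluster 12 and 1040 of the other clusters. A nucleus then held 4.44 ± 0.743 of the 10 genes on average in cluster 23 (SD, n = 7 libraries), 4.10 ± 1.15 in cluster 11, 0.251 ± 0.135 in cluster 12 and 0.682 ± 0.379 in the other clusters (n = 8 each). Hemocytes (cluster 7), the blood cells, should lack these transcripts and had 0.365 ± 0.133, with a median depth of 1194 UMIs, against 699 in cluster 23, before thinning. Between clusters 23 and 11 the difference was 0.373 ± 1.42 over 7 libraries and was positive in 5 of them, within the spread between libraries. It was -0.286 when nuclei were thinned to 500 UMIs and -0.698 without thinning. Before thinning the means were 6.51, 7.24, 2.27 and 2.96 genes in cluster 23, cluster 11, cluster 12 and the other clusters, and 2.5 in hemocytes.

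Most nuclei of the muscle cluster held several of the genes at once, as 65.6% of the thinned nuclei had at least 4 and 91.0% at least 2. In cluster 11 these shares were 62.4% and 93.1%, in cluster 12 0.104% and 4.15%, in hemocytes 0.438% and 5.98%, and in the other clusters 5.86% and 16.7%. Of the thinned nuclei, 2.91% held 0 of the 10 genes in cluster 23, against 70.2% in hemocytes. By gene, *sls* was found in 69.8 ± 11.3% of the thinned nuclei of cluster 23 and in 22.4 ± 15.2% of cluster 11, against 5.19 ± 2.97% of hemocytes. For *sals* the shares were 44.9 ± 9.38%, 8.67 ± 6.48% and 1.03 ± 0.744% in the same order. *Mlc2* ran the other way, in 43.1 ± 16.3% of the nuclei of cluster 23 and 85.0 ± 8.25% of cluster 11, against 12 ± 4.19% of hemocytes. Unthinned, *Mlc2* was above 0 in 60.7 ± 1.98% of hemocytes and *sls* in 28.3 ± 4.46%. Shares in cluster 12 lay below or above those of hemocytes, depending on the gene. They were 6.16 ± 4.32% for *Mlc2* and 2.14 ± 2.32% for *Mhc*, against 12% and 2.84% in hemocytes, but 6.97 ± 3.74% for *sls*, against 5.19%.

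**Figure D4:**
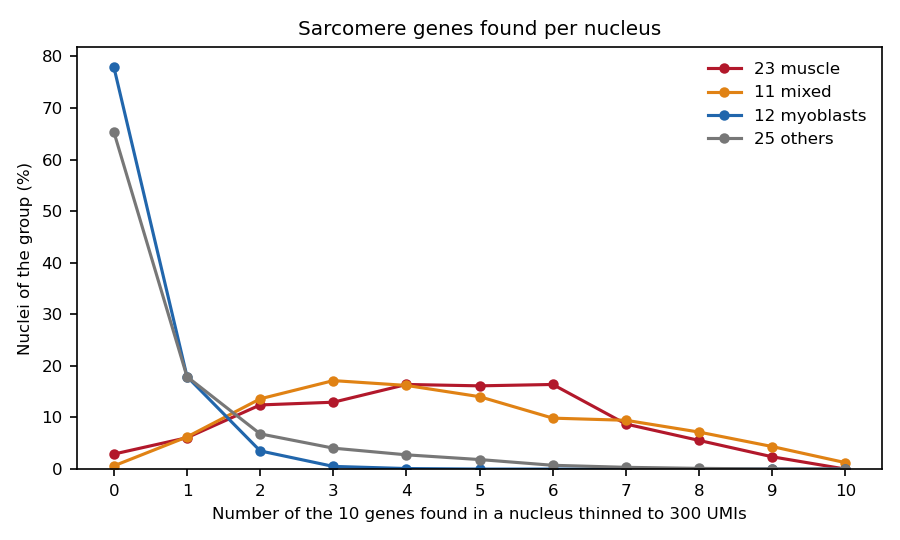
Percent of the nuclei of a group (y axis) by the number of the 10 genes found after thinning to 300 UMIs (x axis), over all libraries. Clusters 23 and 11 peak between 3 and 6 genes, while 77.9% of the nuclei of cluster 12 and 65.4% of the 25 other clusters hold 0.

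The 10 genes had like profiles over the 28 clusters. Correlations of log2(CPM + 1) from counts pooled over libraries lay between 0.57 and 0.99 with a median of 0.87 over the 45 pairs, and are a description, since all clusters share the 8 libraries. Of the 10 other genes with the profile nearest to that of the summed members, among the 28-cluster profiles of genes with at least 50 counts, several are known from muscle. *Zasp66* encodes a Z disc protein (r = 0.97, 13964 CPM in cluster 23 and 5071 CPM in cluster 11, against 106 CPM in cluster 12), *Mp20* a calponin-like muscle protein (r = 0.97, 1948 CPM, 4960 CPM and 33.3 CPM in the same clusters), *Act87E* an actin (r = 0.97, 356 CPM, 1390 CPM and 19.3 CPM) and *l(2)efl* a small heat shock protein (r = 0.97). The other 6 were *CG8888*, *CG5023*, *CG43897*, *CG5177*, *CG44245* and *CG45076*, with r between 0.96 and 0.98. *CG45076* was at 7401 CPM in cluster 23 and 1757 CPM in cluster 11, and *CG8888* at 987 CPM and 1059 CPM.

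Taken 1 by 1, the genes had these nearest profiles. *bt* was the gene most like both *sals* (r = 0.92) and *sls* (r = 0.86), and *tn*, which encodes a ubiquitin ligase of muscle, the gene most like *bt* (r = 0.94), with 3073 CPM in cluster 23 against 349 CPM in cluster 11. *Act57B*, the larval muscle actin, was most like *Mlc2* (r = 0.99), with 1138 CPM in cluster 23 against 9953 CPM in cluster 11, and *Act87E* was most like *Tm2* (r = 0.99). *Prm* was most like *Mhc* (r = 0.98) and *Mf* (r = 0.99), *wupA* like *up* (r = 0.98), *Tm2* like *wupA* (r = 0.99), and *CG8888* like *Prm* (r = 0.99).

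Other genes of the muscle were read from 6 lists that hold none of the 10, but do hold all of the muscle markers used above. Of all genes tested, 23.9% were called higher and 42.8% lower in cluster 23, 40.1% and 39.2% in cluster 11, and 32.6% and 34.5% in cluster 12, and values are log2 fold changes over the other clusters. Of 8 genes of the thick filament and its partners 6 were tested in cluster 23 over the other clusters, 2 rose and 0 fell (list median 0.74, and 1 fell by DESeq2, with totals alone or without the filter on low counts). They were the myosin light chain kinase gene *Strn-Mlck*, at 5.72 in cluster 23, 3.55 in cluster 11 and 1.33 in cluster 12, and *Unc-89*, the M line protein obscurin, at 4.34, 4.88 and -0.25 on the log2 scale, the last not called. Of 17 thin filament genes 11 were tested, 4 rose and 2 fell in cluster 23 (median 0.51), with 4 and 5 by DESeq2, 4 and 4 with totals alone, 5 and 4 with the library as a block, and 3 and 5 without the filter, where the median was -0.05. All 11 rose in cluster 11 (median 2.65), and 8 did with sums scaled by their totals alone or without the filter. The pointed end cap *tmod* was at 5.86 in cluster 23 and 1.92 in cluster 11, troponin C *TpnC73F* at 2.5 and 4.65, *Act87E* at 2.22 and 4.86 and tropomyosin *Tm1* at 1.71 and 2.65, while the cytoplasmic actin *Act5C* was at -2.92 and 1.47. In cluster 23 over cluster 11, 10 of the 11 thin filament genes were lower (9 without the filter or scaled by totals alone, where *Tm1* turned to 0.28) and *tmod* was higher, at 3.93. Of all genes tested, 41.1% were called lower and 35.8% higher in that comparison. Its folds also went with gene length over all genes, as given above, and the part of length in this list was not tested.

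Z disc and costamere genes were called higher in cluster 23 in 11 of 15 tested and lower in 1 (median 1.19). The counts were 6 and 2 without the filter, with a median of 0.63, 9 and 2 by DESeq2 and 11 and 2 with the block. In cluster 11 they were 7 and 3 (median 0.33), which became 6 and 6 by DESeq2 and 5 and 7 with totals alone or without the filter, each with a median below 0. In cluster 12 they were 9 and 5, and 3 and 5 without the filter. *Zasp66* was at 5.30 in cluster 23 and 4.55 in cluster 11, the chondroitin sulfate proteoglycan *kon* at 5.16 and 1.42, the integrin *if* at 3.28 and 0.29 (not called), the formin *Fhos* at 2.97 and -1.18, and the formin *DAAM* at -3.22 and -3.20. In cluster 12 *kon*, which guides muscle to tendon, was at 5.34 as well. In cluster 11 *kon* rested on 14.6 corrected counts, and its pooled level of 12.4 CPM was near the 11.1 CPM of the other clusters. Its 1.42 there thus depends on the scaling. Of 14 genes for excitation and calcium handling 9 were tested, and 6 rose and 1 fell in cluster 23 (4 and 2 by DESeq2, 3 and 2 without the filter, 6 and 2 with totals alone or with the block). They included the ryanodine receptor *RyR* (3.85 in cluster 23, 3.74 in cluster 11), the calcium pump *SERCA* (1.54 and 3.87), the calcium channel *Ca-alpha1D* (3.26 and -2.05) and dystroglycan *Dg* (1.44 and -1.47), and *dysc* fell (-4.10 in cluster 23).

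Muscle transcription factors had the highest list median in cluster 23 over cluster 11 among the 6 lists. Of 22 listed 10 were tested, of which 3 rose and 2 fell in cluster 23 (3 and 1 with the block, 3 and 3 by DESeq2 or with totals alone, 2 and 3 without the filter), whereas 0 rose and 7 fell in cluster 11 (8 fell by DESeq2, scaled by totals alone, or without the filter). In cluster 23 over cluster 11, 9 of the 10 were higher and 0 lower (median 2.65), and 7 to 10 were higher under the alternatives. Of all genes tested, 35.8% were called higher and 41.1% lower there. The part of gene length, which went with the folds of that comparison over all genes, was not tested for this list. *Mef2*, which drives the sarcomere genes in fly muscle, was at 2.12 in cluster 23, 0.42 in cluster 11 (not called) and 1.35 in cluster 12, *org-1*, a T-box factor of muscle identity, at 6.52, 0.20 (not called) and 4.83, and *ct* at 1.31, -4.39 and 2.16. *org-1* had 108 corrected counts in cluster 23, against 1.03 in cluster 11, 64.1 in cluster 12 and 59.4 in the other clusters. Of the 2 that fell in cluster 23, *ap* was the lower, at -3.71.

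Of 13 genes of myoblasts and fusion tested, 4 rose and 8 fell in cluster 23, while 9 rose and 1 fell in cluster 12. Without the filter these were 3 and 8 in cluster 23 and 5 and 1 in cluster 12. The fibroblast growth factor receptor *htl* was at 4.86 in cluster 23, 2.86 in cluster 11 and 4.68 in cluster 12, its adaptor *stumps* at 3.16, 0.33 (not called) and 4.82, *Cf2* at 1.99, -0.17 (not called) and 0.63 and *zfh1* at 1.58, -2.86 and 3.27. *hbs*, an adhesion molecule of fusing myoblasts, was at -4.15, -3.29 and 0.93. These values rest on few counts in places, as *htl* had 10.3 corrected counts in cluster 11. *hbs* had 8.06 there and 4.80 in cluster 23.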

How the data were processed

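Nuclei of whole larvae were profiled with droplet 3′ RNA-seq. According to their methods and the labels, the authors aligned reads with Cell Ranger 7.1.0 to BDGP6, removed ambient RNA with DecontX, filtered nuclei and doublets, integrated libraries with Harmony and clustered and named the nuclei. The deposited values are expected counts, that is UMI counts after the authors' ambient correction, and are mostly not whole (0.0108% of the values above 0 are). Whether counting used strand is not given in the sources used here. The correction lowers counts of abundant RNA outside its source cells, so low levels depend on it.

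Corrected counts were summed per library and cluster (at least 10 nuclei), rounded to whole numbers and tested with edgeR 4.0.16 (TMM scaling, filterByExpr, quasi-likelihood test, Benjamini-Hochberg adjustment, R 4.3.3). DESeq2 1.42.0 was an alternative, as were no scaling, no filter, the library number as a block, other references, nuclei with barcodes of 1 library and leaving out each library. Library totals were 3815620 to 6488760 corrected counts. In cluster 23 the sums were 11556 to 234213, which limits precision there. Tested on simulated data, the fits recovered 88.6% of 193 changed genes in cluster 23 over the other clusters, and 81.9% in cluster 23 over cluster 11. These rates hold for those data only, and the rate for the deposited counts was not tested. Nuclei were thinned to 300 UMIs for the number of genes per nucleus and for the share of nuclei with a gene. Shares of UMIs and of summed counts were not thinned. No further doublet removal was done. Gene positions came from the Ensembl annotation of BDGP6.54. Profiles were correlated as log2(CPM + 1) over genes with at least 50 counts.

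The named genes were the 10 members, the 10 genes with the profile most like their sum, the gene most like each member, and of each list the 4 highest and the lowest called in cluster 23. Members and lists were chosen with earlier results of these data known. The pairing of library numbers comes from the design, as all clusters of a library share the same larvae. Deviations from the cluster means correlated between sums of the same library with a median of 0.070 (-0.196 to 0.357, 45 pairs).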

Additional observations from a re-analysis of the deposited data

Results flagged for a closer look

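Of 44 groups of libraries examined (each gene and the summed share in clusters 23, 11, 12 and the other clusters), 9 had a library far from the rest by Dixon's ratio. For independent groups of normal values chance gives about 1 in 20. These groups share libraries and the genes vary together, so the 9 cannot be set against that rate. They are not separate events, as 8 of the 9 were library 4 of cluster 11. There *Mlc2* was at 28841 CPM (4495 to 14632 CPM in the other 7 libraries), *Mhc* at 9146 CPM (1397 to 4305 CPM), *Mf* at 8883 CPM (1668 to 4222 CPM), *bt* at 7161 CPM (495 to 1748 CPM), *wupA* at 6552 CPM (1107 to 3419 CPM), *sls* at 6451 CPM (499 to 1513 CPM) and *sals* at 868 CPM (160 to 492 CPM). The summed share of the 10 genes there was 8.53% of UMIs. Epidermis markers made up 8.16% of the UMIs of this library in cluster 11, against 25.4% to 33.0% in the other 7 libraries, and their part in these levels was not tested. The same library held most nuclei of enterocyte cluster 3. In cluster 23, *sals* was at 3537 CPM in library 5, against 2139 to 2667 CPM in the other 6 libraries.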

How the results depend on the processing

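Under 21 settings, 135 of the counts and summary values stayed within 1.5 times, for counts, or within the spread between libraries, for the members per nucleus, and 2 moved. That difference, 0.373 more members per nucleus in cluster 23 than in cluster 11, lay within that spread and changed sign, to -0.286 thinned to 500 UMIs and -0.698 without thinning. In cluster 12 over the other clusters, 0 genes were called, against 8, without cluster 3 and the mixed clusters in the reference, where *up* turned to 0.29. That reference was chosen after the levels were seen. In cluster 23 over cluster 11, 5 were called, against 8, without the filter on low counts. The replicate block, which pairs sums by library, changed no count of members called: 9, 10, 8, 8, 10 and 10 in the 6 comparisons. *Mf* in cluster 23 over cluster 11, near 0 at -0.17, turned to 0.0838 by DESeq2, 1.02 with totals alone, 0.45 without the filter, 0.0669 with the replicate block, 0.0392 with sums of at least 1 nucleus and 0.14 with barcodes of 1 library, and ran from -0.31 to 0.48 without 1 library. Of the same comparison, *up* was at 0.28 with totals alone. *Mlc2* in cluster 23 over the other clusters was at -0.23 without the filter and -0.19 against all nuclei outside the cluster, and *Mf* in cluster 12 over the discs was at -0.0359 by DESeq2. Leaving out 1 library gave 6 to 8 genes called in cluster 23 over cluster 11 and 8 to 9 in cluster 12 over the other clusters, with 9, 10, 10 and 10 in the other comparisons. It gave 8 to 9 genes whose share differed with 1 sign from cluster 11, 7 to 8 from the other clusters, and 0.134 to 0.719 members per nucleus. For these results the cause was not tested. Depth limits cluster 23 most, whose smallest sum held 22 nuclei.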
